A study of Saccharomyces cerevisiae with 2 samples.

Results

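RNA polymerase II transcribes the mRNAs of *S. cerevisiae* and many of its non-coding RNAs. The genes of 10 of its subunits are described here, *RPO21*, *RPB2*, *RPB3*, *RPB4*, *RPB5*, *RPO26*, *RPB7*, *RPB8*, *RPB9* and *RPB11*, which were chosen by gene identifier and are 10 of 5775 nuclear ORFs among the 9633 transcripts listed. RNA-seq read densities of 2 strains were compared, both BY4741 grown exponentially and asynchronously in YPD. In *trf4*∆ the gene of Trf4p, which adds poly(A) tails to nuclear RNAs as part of TRAMP, is deleted, and *xrn1*∆ *trf4*∆, which carries the same deletion, lacks in addition the cytoplasmic 5′–3′ exoribonuclease Xrn1p. A single culture of each strain was sequenced, so no difference has a replicate check and no p-value is given. Libraries of WT and of *xrn1*∆ are not analysed here.

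The density of a transcript is its number of uniquely placed reads per nucleotide, normalized by the authors on the total reads mapped on ORFs. RNA per cell is thus not measured. The product of density and R64 gene length came to whole reads for all 10 genes, within 0.01 in both libraries, with 1 read worth 0.626 in *xrn1*∆ *trf4*∆. Read numbers of the 10 genes ranged from 202 to 8265 in *trf4*∆, where the median ORF had 316, and from 646 to 8523 in the double mutant, where it had 978.5. Intervals are 95% intervals of these reads, exact for counts and ratios, and they cover counting error only. In the check of the labels, *TRF4* had 0 and 1 reads and *XRN1* 7272 and 111 reads in *trf4*∆ and *xrn1*∆ *trf4*∆.

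The enzyme is built from a small number of structural units. Rpo21p and Rpb2p, the largest subunits, form the active centre between them, and the C-terminal domain (CTD) of Rpo21p is a series of repeats that is phosphorylated during transcription and recruits RNA-processing factors. Rpb3p and Rpb11p pair in a platform related to the bacterial alpha subunits, while Rpb4p and Rpb7p form a stalk that can leave the enzyme and has been linked to mRNA export and decay. Rpb9p, a small subunit at the jaw of the enzyme, bears on start site choice and fidelity. Rpb5p, Rpo26p and Rpb8p are shared with RNA polymerases I and III, as are the products of *RPB10* and *RPC10*, the other subunit genes of the enzyme, which are given for comparison.

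A pair of sequences bears on how reads of these genes were counted, and both are printed from the R64 genome. The first is a stretch of 147 nt from the CTD part of *RPO21* (chromosome IV, 205771 to 205917, minus strand), shown because repeats can cost a gene its unique reads. Its 7 repeats of 7 residues are each coded by 21 nt, and capitals mark the first codon, for tyrosine, of each.
RPO21 CTD repeats: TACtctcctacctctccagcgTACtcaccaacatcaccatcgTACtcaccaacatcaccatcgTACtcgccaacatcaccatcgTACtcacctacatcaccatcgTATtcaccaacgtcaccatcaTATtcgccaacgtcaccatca
The second is the intron of *RPO26* (chromosome XVI, 911277 to 911352, plus strand), shown because it decides which length the density was divided by. Capitals mark the 5′ splice site, the branch point and the 3′ splice site.
RPO26 intron: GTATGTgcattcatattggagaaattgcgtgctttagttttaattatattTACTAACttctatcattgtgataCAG

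In *RPO21*, 23 repeats were found as tyrosine, any residue, proline, threonine, any residue, proline, any residue, over 483 nt. Repeats that depart from this pattern were not counted, so the CTD part here is the stretch that the pattern covers. Every sequence of 50 nt, the read length, was unique in the genome in this part and in the other members. With up to 3 mismatches, the number allowed in alignment, 50 of the 5153 start positions of *RPO21* were no longer unique, all 50 within the 434 of the CTD part, and 47 of them within the stretch printed above. All positions of the other 9 genes stayed unique. The 76 nt intron makes up 14.0% of *RPO26*, which was counted with it, since 295 whole reads in *trf4*∆ came from the length of 544 nt and not from the coding length of 468 nt. Of 263 ORFs with introns and a density above 0 in *trf4*∆, 260 gave whole reads with the intron included and 10 without it. *RPO26* is the only member with an intron, and its densities over the coding length with all reads kept would be 0.630 and 1.25. No gene or pseudogene annotated in R64 overlaps a member. Overlap with the unstable non-coding transcripts among those listed was not checked.

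Most subunit genes were well above the typical ORF in both libraries, and they differed among themselves by more than their counting error. Their median density was 1.02 normalized reads per nucleotide in *trf4*∆, the 82.7th percentile of ORFs, and 1.29 in *xrn1*∆ *trf4*∆, the 80.8th percentile. *RPB8* was the highest and *RPB4* the lowest in each library, 6.48-fold apart in *trf4*∆ and 8.29-fold in *xrn1*∆ *trf4*∆. These mRNA levels are thus uneven for proteins that the enzyme holds in equal number or nearly so.

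The order of the levels in *trf4*∆ was *RPB8*, *RPO21*, *RPB7*, *RPB2*, *RPB5*, *RPB11*, *RPB9*, *RPO26*, *RPB3* and *RPB4*. In this order *RPO21* and *RPB7* did not differ beyond their counting intervals, nor did *RPB5* and *RPB11*, nor each gene and the next among *RPB9*, *RPO26*, *RPB3* and *RPB4*. In *xrn1*∆ *trf4*∆ the order was *RPB8*, *RPB7*, *RPB9*, *RPB11*, *RPB5*, *RPB2*, *RPO26*, *RPO21*, *RPB3* and *RPB4*. The intervals of *RPB9* and *RPB11* overlapped there, as did those of *RPB11* and *RPB5* and those of *RPO26* and *RPO21*. *RPO21* moved from place 2 to place 8, and *RPB9* from place 7 to place 3, while *RPB8*, *RPB5*, *RPB3* and *RPB4* kept their places.

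**Figure D1:**
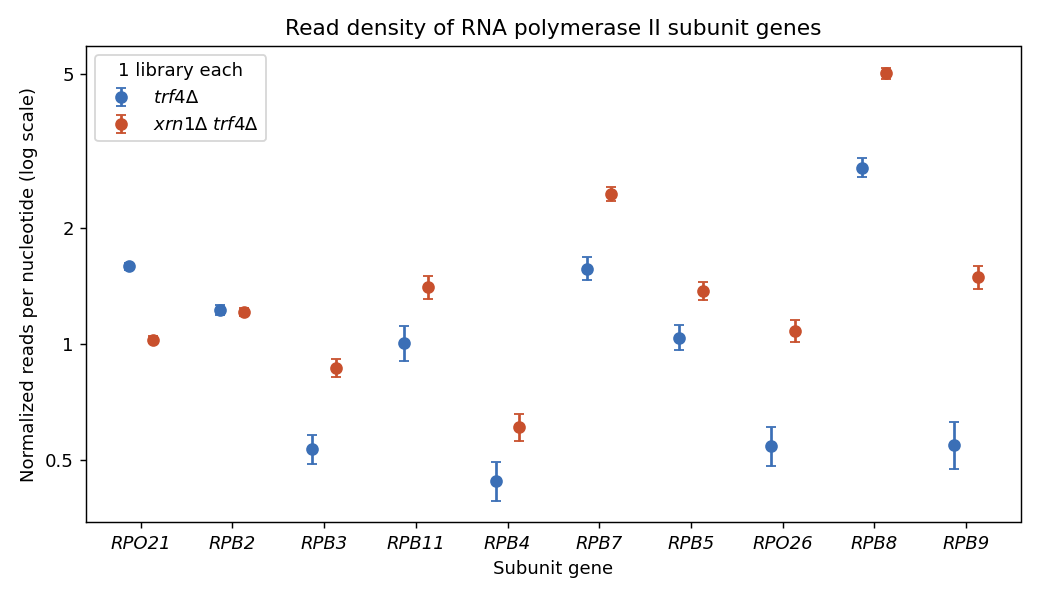
Read density of the 10 subunit genes in normalized reads per nucleotide on a log axis, in *trf4*∆ (blue) and *xrn1*∆ *trf4*∆ (red), with exact 95% counting intervals as bars and 1 library each. *RPO21* is lower in *xrn1*∆ *trf4*∆ (1.59 against 1.03), *RPB2* nearly equal (1.22 against 1.21), and the other 8 genes are higher.

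The comparison of the strains asks how transcript levels differ when Xrn1p is lost in addition to Trf4p. In the double mutant *xrn1*∆ *trf4*∆, 8 of the 10 genes were denser in reads and 2 less dense, where 82.0% of the 5638 ORFs detected in both were higher. The log2 ratio of the densities, double mutant over *trf4*∆, had a median of 0.56 over the 10 genes and 0.78 over ORFs, with ORF quartiles of 0.20 and 1.34. Without *RPO21* and *RPB2*, a choice made after their values were seen, the median was 0.67. Only *RPB9* was more than 2-fold higher, against 40.1% of ORFs, and no member was more than 2-fold lower, against 2.63% of ORFs. The counting interval lay above 0 for 8 members and below 0 for 1, against 75.5% and 13.2% of the 5517 ORFs with more than 3 reads in both libraries. It lay above the ORF median for 2 members and below it for 6, against 39.1% and 40.5% of these ORFs. The 1849 ORFs whose mean log2 density lay within the range of the members had a median log2 ratio of 0.47. Of these 1849, 485 were more than 2-fold higher. Their interval lay above the median of all ORFs for 542 and below it for 1091.

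These directions depend on the scale set between the libraries. Setting the median ORF density of both libraries equal moves each log2 ratio by -0.94 and leaves 2 of the 10 genes higher, *RPB9* and *RPO26*. A 30% trimmed mean moves them by -0.78 and leaves 3 higher, with *RPB8* added. Of all ORFs, 42.4% are higher under the former scale and 50.04% under the latter. *RPO21* is more than 2-fold lower under both (-1.58 and -1.42). Positions relative to the ORF median and differences between subunits do not depend on the scale.

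*RPO21* (YDL140C, chromosome IV of R64, 205360 to 210561, minus strand) encodes the catalytic subunit with the CTD. Its density was 1.59 in *trf4*∆ (8265 reads) and 1.03 in *xrn1*∆ *trf4*∆ (8523 reads). It was the member with the lowest log2 ratio, -0.63 (95% interval -0.67 to -0.59), a density 0.646 times that in *trf4*∆ and lower under every scale tried. The ratio lay 1.42 below the ORF median on the log2 scale, at the 5.46th percentile of ORFs. *RPB2* (YOR151C, chromosome XV, 612997 to 616671, minus strand), which encodes the second largest subunit, had a density of 1.22 in *trf4*∆ (4501 reads) and 1.21 in *xrn1*∆ *trf4*∆ (7088 reads). Its log2 ratio of -0.02 (-0.07 to 0.03) held 0 under the authors' normalization and stood at the 17.4th percentile.

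Between these partners in the active centre, the log2 ratio of *RPO21* was lower than that of *RPB2* by more than counting error. The difference was -0.61 (-0.68 to -0.54). The *RPO21* density was 1.30 times that of *RPB2* in *trf4*∆ and 0.849 times in *xrn1*∆ *trf4*∆, so that the order of the pair turned. Both genes together held 74.3% of the reads of the 10 genes in *trf4*∆ and 57.4% in *xrn1*∆ *trf4*∆.

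*RPO21* RNA served the study as a loading control on Northern blots and in the normalization of RT-qPCR, beside *ACT1*, *scR1* and 18S rRNA. *ACT1*, the actin gene, had a density of 23.7 in *trf4*∆ and 8.51 in the double mutant, a log2 ratio of -1.48 (-1.51 to -1.45). *scR1*, the RNA of the signal recognition particle, had densities of 789 and 249.5 and a log2 ratio of -1.66. In these libraries the 3 control RNAs were all lower in *xrn1*∆ *trf4*∆, and the log2 ratio of *RPO21* was 0.85 above that of *ACT1* and 1.03 above that of *scR1*, differences that no scale changes. A Northern blot is read per amount of RNA loaded, while these densities are of rRNA-depleted RNA relative to ORF reads. The lower densities thus do not show lower levels of the controls in total RNA.

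*RPB3* (YIL021W, chromosome IX, 312905 to 313861, plus strand) and *RPB11* (YOL005C, chromosome XV, 315813 to 316175, minus strand) encode the alpha-like pair. *RPB3* had a density of 0.533 in *trf4*∆ (510 reads) and 0.864 in *xrn1*∆ *trf4*∆ (1321 reads), a log2 ratio of 0.70 (0.55 to 0.85). *RPB11* had a density of 1.01 (365 reads) and 1.40 (812 reads), a log2 ratio of 0.48 (0.30 to 0.66). *RPB11* was thus above its partner in both libraries, 1.89-fold in *trf4*∆ and 1.62-fold in *xrn1*∆ *trf4*∆. The difference between their log2 ratios, 0.22, has an interval of -0.02 to 0.46 that holds 0.

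The stalk genes stood further apart. *RPB4* (YJL140W, chromosome X, 150961 to 151626, plus strand) had a density of 0.441 in *trf4*∆ (294 reads) and 0.607 in *xrn1*∆ *trf4*∆ (646 reads), with a log2 ratio of 0.46 (0.26 to 0.66). *RPB7* (YDR404C, chromosome IV, 1276654 to 1277169, minus strand) had a density of 1.57 (808 reads) and 2.45 (2015 reads), with a log2 ratio of 0.64 (0.52 to 0.76). *RPB7* lay 3.55-fold above *RPB4* in *trf4*∆ and 4.03-fold in *xrn1*∆ *trf4*∆. Their ratios between the strains differed by -0.18, with an interval of -0.42 to 0.05 that holds 0.

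*RPB9* (YGL070C, chromosome VII, 374459 to 374827, minus strand) had the highest log2 ratio of the 10 genes. Its density was 0.547 in *trf4*∆ (202 reads) and 1.49 in *xrn1*∆ *trf4*∆ (877 reads). The log2 ratio of 1.44 (1.22 to 1.67), a 2.72-fold higher density, stood at the 79.0th percentile of ORFs. It moved *RPB9* from the level of *RPO26* and *RPB3* in *trf4*∆ to that of *RPB11* in *xrn1*∆ *trf4*∆.

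The shared subunits differed among themselves as well. *RPB5* (YBR154C, chromosome II, 548362 to 549009, minus strand) had a density of 1.04 in *trf4*∆ (673 reads) and 1.37 in *xrn1*∆ *trf4*∆ (1418 reads), with a log2 ratio of 0.40 (0.27 to 0.53). *RPO26* (YPR187W, chromosome XVI, 911257 to 911800, plus strand) had a density of 0.542 (295 reads) and 1.08 (937 reads), with a log2 ratio of 0.99 (0.80 to 1.19). *RPB8* (YOR224C, chromosome XV, 760825 to 761265, minus strand), the most abundant of all, had a density of 2.86 (1262 reads) and 5.03 (3545 reads), with a log2 ratio of 0.81 (0.72 to 0.91). *RPB5* had the lowest ratio of the 3, by -0.59 (-0.83 to -0.36) against *RPO26* and -0.41 (-0.58 to -0.25) against *RPB8*. *RPO26* and *RPB8* differed by 0.18, and that interval of -0.04 to 0.39 holds 0. Of the 6 pairs compared in all, 3 had an interval that holds 0, which does not show that their ratios are equal.

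*RPB10* (YOR210W) and *RPC10* (YHR143W-A), each 213 nt long, had densities of 0.638 and 0.906 in *trf4*∆ and of 1.26 and 2.05 in *xrn1*∆ *trf4*∆. Their log2 ratios were 0.98 (0.70 to 1.27) and 1.18 (0.95 to 1.42). Over the 5 shared subunits the median log2 ratio was 0.98, and over the 7 members that are not shared 0.48. The 3 shared members alone had a median of 0.81. The 7 include the longest members, *RPO21* (-0.63) and *RPB2* (-0.02), so the sets differ in gene length as well.

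**Figure D2:**
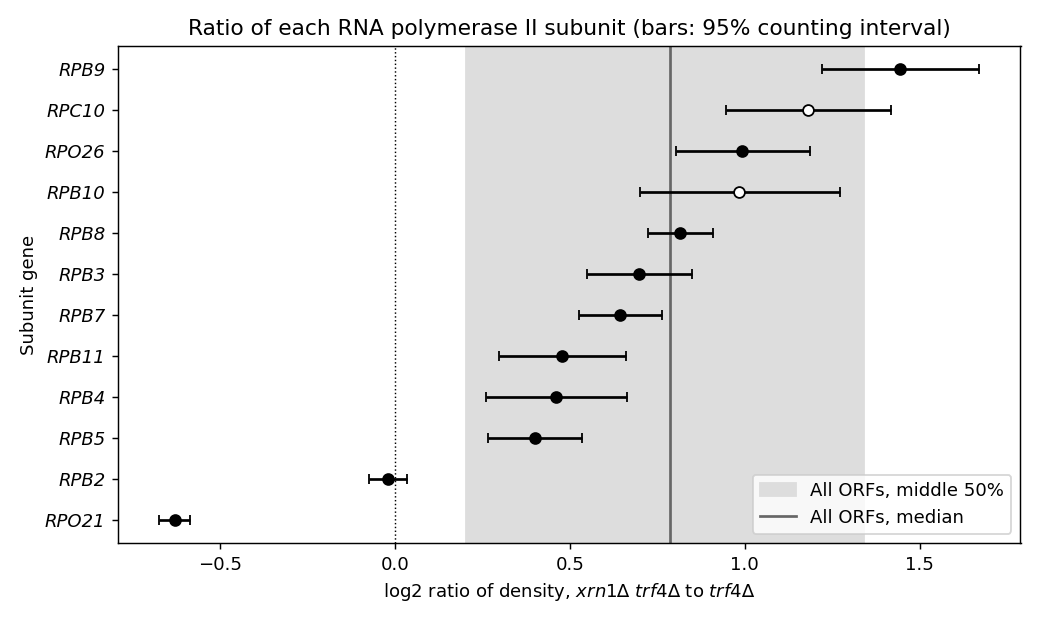
Log2 ratio of the densities, *xrn1*∆ *trf4*∆ over *trf4*∆, for each subunit gene, with 95% counting intervals as bars (filled, the 10 members, and open, *RPB10* and *RPC10*). The line marks the ORF median of 0.78 and the band the ORF quartiles of 0.20 and 1.34, and *RPO21* (-0.63) and *RPB2* (-0.02) are the only genes to the left of the band.

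*RPO21* and *RPB2* are also the longest members, 5202 and 3675 nt, while the other 8 genes are between 363 and 957 nt. Over the 10 members, the log2 ratio went with log2 gene length with Pearson's r of -0.85 and Spearman's rho of -0.66. Without *RPO21* and *RPB2*, r was -0.40 and rho -0.33 over 8 genes. These are descriptions across genes that share the same 2 libraries.

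Length also went with the ratio in ORFs at large, and mostly among ORFs of a level like that of the members. Among 1849 ORFs whose mean log2 density lay within the range of the members, the median log2 ratio was 1.01 under 500 nt, 0.55 from 500 to 1000 nt, 0.42 from 1000 to 2000 nt, 0.30 from 2000 to 3000 nt and -0.08 in the 110 ORFs of at least 3000 nt. Of these 110 ORFs, 21 had a ratio below that of *RPO21*, which stood at their 19.1st percentile, and 59 a ratio below that of *RPB2*, at the 53.6th. *RPB9* stood at the 88.7th percentile of the 1849 ORFs. Over all ORFs the relation with length was weaker, with a rho of -0.15 against -0.29 in the range of the members. The length classes and this range were chosen after the values of the members were seen. Whether length, or something that goes with it such as RNA integrity, has a part in the ratios of *RPO21* and *RPB2* was not tested.

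The subunit genes of RNA polymerases I and III, which make rRNA and tRNA and other small RNAs, showed a like order of the largest and second largest subunit. The largest subunit had the lowest ratio in each enzyme, *RPA190* with -0.95 (-0.98 to -0.91) in RNA polymerase I, *RPO31* with -0.70 (-0.77 to -0.64) in RNA polymerase III and *RPO21* with -0.63 in RNA polymerase II. Of the second largest, *RPA135* had -0.62 (-0.65 to -0.58) and *RET1* 0.22 (0.15 to 0.29), beside -0.02 for *RPB2*. *RET1* was not the second lowest of its enzyme, since *RPC37* (0.06), *RPC82* (0.12) and *RPC53* (0.13) were lower, with intervals that overlap that of *RET1*. In each enzyme the largest subunit was lower than the second largest by more than counting error, by -0.33 (-0.38 to -0.28) for *RPA190* against *RPA135* and by -0.92 (-1.02 to -0.83) for *RPO31* against *RET1*, beside -0.61 for RNA polymerase II.

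Of the 31 subunit genes of the 3 enzymes, *RPA190*, *RPO31*, *RPO21*, *RPA135* and *RPB2* had the 5 lowest ratios and were the only ones below 0 under the authors' normalization. The other 25, without *RET1*, had a median of 0.49. The ratio went with log2 length over all 31 with Spearman's rho of -0.86, and with -0.75 over the 25. Over the 7 unshared subunits of RNA polymerase I it went down with every step in length, a rho of -1, from *RPA12* with 0.72 (0.51 to 0.94) at 378 nt to *RPA190* at 4995 nt. From *RPA12* through *RPA14*, *RPA34* and *RPA43* to *RPA49*, however, the interval of each gene overlapped that of the next. Over the 10 unshared subunits of RNA polymerase III rho was -0.83, and *RPC17*, with 1.59 (1.27 to 1.93) at 486 nt, was the highest of the 31. This comparison of large and small subunits was chosen after the values were seen.

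**Figure D3:**
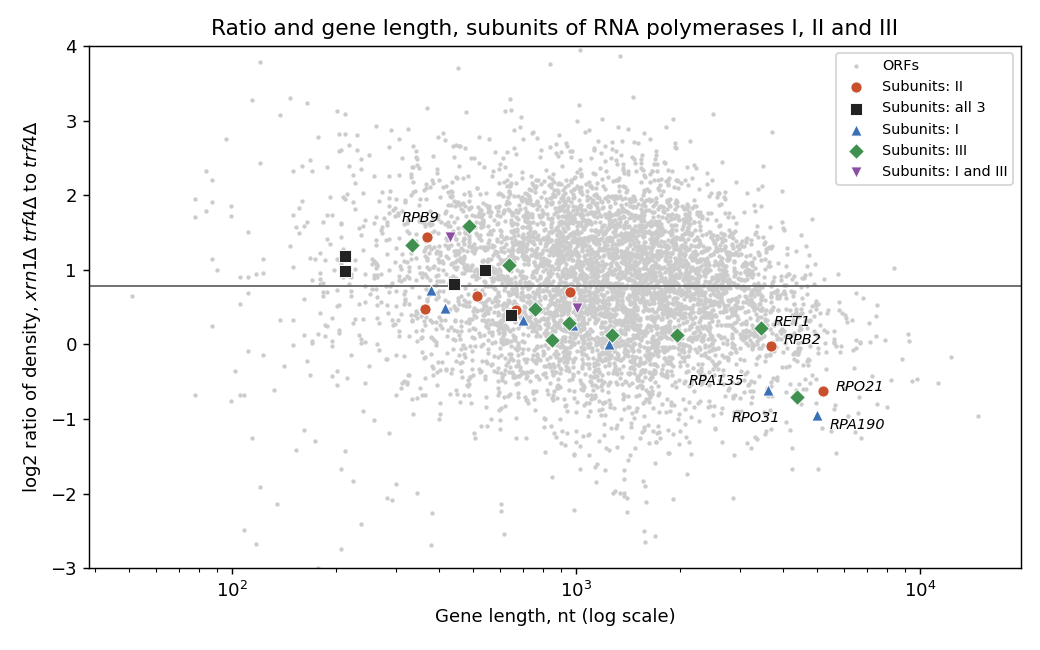
Log2 ratio of the densities, *xrn1*∆ *trf4*∆ over *trf4*∆, against gene length in nt on a log axis, for subunits of RNA polymerases I, II and III (coloured, by the enzymes that hold them) and for ORFs (grey, with those beyond the vertical axis not drawn). The line is the ORF median of 0.78, and the 6 named long genes, from *RPA190* at -0.95 to *RET1* at 0.22, all lie under it.

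The lists of other transcription genes are read against all ORFs, of which 82.0% were higher in *xrn1*∆ *trf4*∆, 40.1% past 2-fold. The 7 unshared subunits of RNA polymerase I had a median log2 ratio of 0.26, with 5 genes higher in *xrn1*∆ *trf4*∆, 0 past 2-fold and 2 lower. The 10 unshared subunits of RNA polymerase III had a median of 0.25, with 9 higher, 3 of them past 2-fold, and 1 lower. *RPC40* and *RPC19*, shared by RNA polymerases I and III, had 0.49 (0.41 to 0.57) and 1.45 (1.23 to 1.66).

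The 19 general transcription factor genes, whose products place the enzyme at promoters, were all higher, with a median of 0.88, and 7 were past 2-fold, about the share of all ORFs. They reached from *TFG1*, a TFIIF subunit, with 0.16 (0.02 to 0.30) to *KIN28*, the CTD kinase of TFIIH, with 1.80 (1.50 to 2.10). The Mediator, which links activators to the enzyme, had a median of 1.20 over 25 genes, of which 24 were higher and 15 past 2-fold. Its highest was *SOH1* with 2.53 (2.23 to 2.83), and *ROX3* with -0.44 (-0.59 to -0.28) was its only lower gene.

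Kinases and phosphatases of the CTD had the highest median of these lists, 1.65 over 8 genes, all higher and 6 past 2-fold. *BUR2*, a cyclin, was the highest with 1.91 (1.63 to 2.21), and its kinase partner *BUR1*, named *SGV1* in R64, the lowest with 0.56 (0.37 to 0.75). The 11 elongation factor genes had a median of 0.55, near that of the members, with 9 higher, 3 of them past 2-fold, and 2 lower. *LEO1*, of the Paf1 complex, had 1.21 (0.87 to 1.55), while *SPT5*, which travels with the enzyme, had -0.62 (-0.72 to -0.53). The 7 genes of assembly and import had a median of 0.77, with 6 higher and 2 past 2-fold, from *BUD27* with -0.17 (-0.35 to 0.01) to *IWR1*, an import factor, with 1.53 (1.25 to 1.82). Densities differ between the lists, with the members among the highest, and the ratio over all ORFs went down with mean log2 density (rho -0.33). Its part in these medians was not tested.

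**Figure D4:**
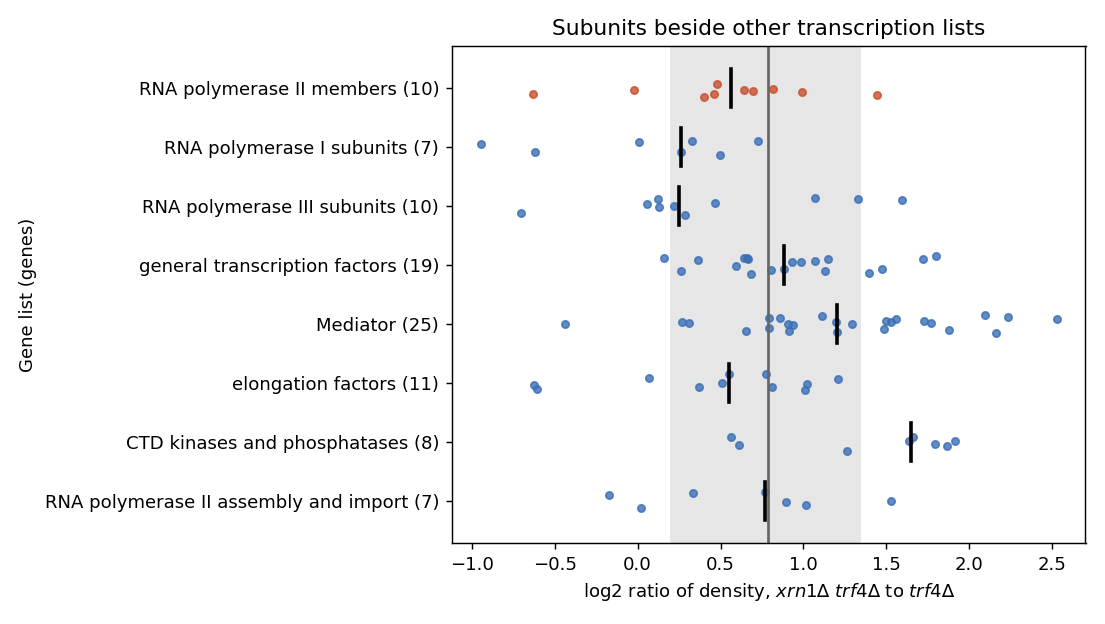
Log2 ratio of the densities, *xrn1*∆ *trf4*∆ over *trf4*∆, for each gene of 8 lists (points, spread vertically for display), with the median of each list as a black bar, the ORF median as a grey line and the ORF quartiles as a band. The members (red) have a median of 0.56, above the unshared subunits of RNA polymerases I (0.26) and III (0.25). They lie below the Mediator (1.20) and the CTD kinases and phosphatases (1.65). Unlike the lists of RNA polymerases I and III, the members include 3 shared subunits, and the 7 that are not shared have a median of 0.48.

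The ORFs outside these lists nearest to the median point of the members, by distance in log2 density over both libraries, were *SKP1* (1.02 and 1.24), *SAM4* (1.06 and 1.32) and *DIF1* (1.03 and 1.23), at distances of 0.051, 0.060 and 0.068. The median point itself was 1.02 in *trf4*∆ and 1.29 in *xrn1*∆ *trf4*∆.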

How the data were processed

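Total RNA was depleted of rRNA, and the authors sequenced reads of 50 nt by SOLiD and aligned them with Bowtie 0.12.7, with up to 3 mismatches, to the S288c genome. The deposited values are a signal, read density per nucleotide of reads with a unique position, normalized by the authors on ORF reads. Which annotation release was used and whether strand was used in counting are not given in the sources used here. Both value columns were used and 0 left out.

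Lengths and coordinates come from R64, where 5738 of 5770 ORFs (99.4%) gave whole reads within 0.01. Their reads summed to 7455598 for *trf4*∆ and to 12121664 for *xrn1*∆ *trf4*∆. Log2 ratios have no pseudocount. Intervals at 95% are Clopper-Pearson for a ratio, Poisson for a density and conditional exact for a difference between genes. PCR reads are not independent molecules.

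The members and all 9 lists (91 genes, all found) were chosen with earlier results of these data known. Genes named are the members, *RPB10*, *RPC10*, the highest and lowest of each list of at least 5 genes, the 3 nearest ORFs, *TRF4* and *XRN1*, and the loading controls of the study. Others of RNA polymerases I and III were named after their values were seen. Functions were tested on simulated data. Uniqueness was counted exactly and with bwa 0.7.19. Computations ran in SciPy 1.17.1, pandas 2.3.3 and NumPy 2.4.6 under Python 3.11.15, with plots from matplotlib 3.10.9.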

Additional observations from a re-analysis of the deposited data

How the results depend on the processing

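In the absence of replicates, a value was taken as moved when it lay outside the main interval, which for the median of the members runs from the 2nd to the 9th of the 10 ratios (-0.02 to 0.99), and a count when it changed by over 1.5 times. Of 80 values under alternatives, 50 stayed, some of which could not move, as given below. The median log2 ratio of the members was -0.38 with median ORF densities set equal and -0.22 under the trimmed mean. The number of higher members came to 2 and 3, where 42.4% and 50.04% of ORFs were higher. The number of members more than 2-fold higher came to 0 under both. *RPO21* was more than 2-fold lower under both (-1.58 and -1.42), and *RPB2* had -0.96 and -0.80. Under the same 2 scales, ratios whose interval lay above 0 came to lie below it for *RPB3* (-0.25 and -0.086), *RPB11* (-0.47 and -0.31), *RPB4* (-0.48 and -0.32), *RPB7* (-0.30 and -0.14) and *RPB5* (-0.54 and -0.38), and for *RPB8* under the former scale alone (-0.13). Both scales set ORFs near 0 by construction. Equal sums of ORF densities nearly repeat the authors' normalization, with a shift of -0.08. Even so, *RPO21* (-0.71) and *RPB2* (-0.10) came to lie below their main intervals, while the other 8 ratios stayed within theirs. The median of the members stayed within its interval with either pseudocount (0.01 or 0.1) and with the mean in place of the median. That interval is wide beside such changes, so these are weak checks. Of the single ratios, that of *RPO21* moved with the pseudocount of 0.1, to -0.585, just above the upper end of its interval at -0.587. All 6 differences between partners stayed within theirs with both pseudocounts. The median also stayed with a minimum mean density of 0.05, which left out no member and so could not move it. It stayed with *RPB10* and *RPC10* added, the 3 shared members left out, and *RPO21* and *RPB2* left out. These outcomes were fixed in advance, since so few genes cannot carry a median past the 2nd or 9th ratio. With reads divided by unique positions, 6 of 10 members kept their place in the order of *trf4*∆, where *RPO21* and *RPB7*, and *RPB5* and *RPB11*, changed places, and all 10 in *xrn1*∆ *trf4*∆. No paired analysis was possible because each strain has 1 library.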
